A study of Mus musculus with 6 samples.

Results

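The Ly6 surface antigens described here are 4 genes of mouse chromosome 15, *Ly6a*, *Ly6c1*, *Ly6c2* and *Ly6e*, which are 4 of the 32285 genes in the deposited count matrices. They were chosen by their UMI levels in these same libraries, as genes whose pattern over tissues and genotypes stood out, so those levels are given as a description and not as a test. A UMI, or unique molecular identifier, marks 1 captured transcript molecule. The UMIs of each gene were summed over the CD8 T cells of each library and expressed as counts per 1000000 UMIs (CPM). Cells of the lymph node (LN) were also read in a pair of ranges, those with fewer than 3 UMIs of *Ccl5* and those with 3 or more. *Ccl5* encodes a chemokine that antigen-experienced CD8 T cells carry and naive ones lack.

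The cells came from mice engrafted with B16-OVA, a mouse melanoma line that expresses ovalbumin, and the design text places the harvest at 12 days. Tumors and draining LN of 3 control mice (CD8-Cre-Rosa26Tomato) and of 3 CD8-IFNγRKO mice (CD8-Cre-Rosa26Tomato-IFNgR1flox/flox) were pooled by genotype, and live CD45+ CD3+ CD8+ Tomato+ cells were sorted. Both genotypes therefore carry the Cre, which the CD8α promoter drives, and the Tomato reporter that Cre switches on, and they differ in the floxed alleles of the gene for chain 1 of the interferon-γ (IFNγ) receptor. Each tissue and genotype gave 1 gene expression library read from the 5′ end of the transcripts, 4 in all, and the 2 tumor libraries were also sequenced for T cell receptors. With 1 library per tissue and genotype no difference has a replicate check. The 95% intervals given below are exact Poisson or Clopper-Pearson intervals that cover counting error only, and no p-value is given.

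After filtering, 8623 CD8-IFNγRKO tumor cells, 7082 control tumor cells, 6726 CD8-IFNγRKO LN cells and 6640 control LN cells remained, with median depths of 9400, 6312, 3862 and 4051 UMIs. *Ifngr1*, the targeted gene, stood at 238 CPM in the CD8-IFNγRKO tumor library against 718 CPM in the control tumor library, and at 137 CPM against 182 CPM in the LN. Its log2 ratio was −1.59 in the tumor (interval −1.62 to −1.57) and −0.41 in the LN (interval −0.47 to −0.35). The exon between the loxP sites is not given in the sources used here. A UMI of *Ifngr1* in the CD8-IFNγRKO libraries therefore cannot be read as a working receptor or as the lack of one. All 8 CD8 T cell markers were present in every library at 171 to 2120 CPM each. Among them *Cd2*, *Cd8a* and *Cd8b1* were required of every retained cell. The summed level of the markers of monocytes and neutrophils, which also carry Ly6 antigens, was 2.43 to 41.6 CPM. In the tumors most of it was *Ccr2*, at 37.5 CPM in CD8-IFNγRKO and 27.7 CPM in control cells. *S100a9* was at 0 CPM in every library. The B cell markers summed to 247 CPM in the CD8-IFNγRKO LN and 241 CPM in the control LN, of which *Ighm* made up 227 and 223 CPM, while *Ms4a1* was at or below 0.035 CPM. Of the retained barcodes, 407 occurred in more than 1 library, with 51 to 82 shared by any 2 libraries.

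Ly6 proteins are small surface proteins held in the outer leaf of the membrane by a glycosylphosphatidylinositol (GPI) anchor. *Ly6a* encodes Sca-1, the antigen used to sort mouse blood stem cells and a marker of activated and memory T cells. *Ly6c1* and *Ly6c2* encode the near-identical Ly6C antigens, which mark inflammatory monocytes and, on CD8 T cells, effector and memory cells. *Ly6e* encodes thymic shared antigen 1, found on thymocytes and many other cells and known for effects on virus entry. The genes are known to respond to interferons. IFNγ binds a receptor of chains 1 and 2, whose signal acts at gamma-activated sites (GAS) near its target genes. The type I interferons act through another receptor and the interferon-stimulated response element (ISRE).

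In the GRCm38.p6 annotation the 4 genes lie within 157042 bases of chromosome 15, a stretch that holds 5 protein-coding genes. *Ly6e* (ENSMUSG00000022587) is at chr15:74955025-74959904, *Ly6a* (ENSMUSG00000075602) at chr15:74994877-74998031, *Ly6c1* (ENSMUSG00000079018) at chr15:75044018-75048920 and *Ly6c2* (ENSMUSG00000022584) at chr15:75108161-75112066. *Ly6c1* and *Ly6c2*, 59240 bases apart, are near-identical copies of each other, and Cell Ranger as a rule counts reads that match both for neither, so the split between them is uncertain. The 250 bases upstream of a RefSeq start of each are shown because these near-copies gave very different counts, as described further on. They come from the minus strand at chr15:75048838-75049087 and chr15:75111972-75112221, and capitals mark the 2 runs of at least 12 bases that the aligned sequences share. Both windows overlap the gene ranges given above. The last part of each, with the longer of the shared runs, thus lies inside the annotated gene and not upstream of it.
Ly6c1: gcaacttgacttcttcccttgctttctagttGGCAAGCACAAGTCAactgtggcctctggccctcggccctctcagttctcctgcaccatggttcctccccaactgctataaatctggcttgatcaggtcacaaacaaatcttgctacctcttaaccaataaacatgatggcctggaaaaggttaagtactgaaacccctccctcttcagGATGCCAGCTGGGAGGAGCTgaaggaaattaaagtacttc
Ly6c2: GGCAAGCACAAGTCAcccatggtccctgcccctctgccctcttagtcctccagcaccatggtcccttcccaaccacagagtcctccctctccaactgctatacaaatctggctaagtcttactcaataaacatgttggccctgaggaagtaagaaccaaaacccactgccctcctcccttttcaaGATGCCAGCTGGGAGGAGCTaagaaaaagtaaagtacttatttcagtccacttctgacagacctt

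Of 215 aligned pairs of bases, 168 (78.1%) were identical, the longest shared run was 20 bases, and 14 positions were gaps. The letters TTCNNNGAA (GAS) were in 8.30% of the 32851 RefSeq promoter windows of 300 bases, and the letters GAAA repeated after 2 bases (ISRE) were in 3.44%, with both strands searched. Neither was found in the windows of *Ly6c1* or *Ly6c2*, which says only that these letters are not in those windows.

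The genes differed in how far their levels moved over the 6 groups, the 2 tumor libraries and the 4 ranges of LN cells. *Ly6a* spanned 104.8-fold, from 19.9 CPM in CD8-IFNγRKO LN cells with fewer than 3 *Ccl5* UMIs to 2089 CPM in CD8-IFNγRKO tumor cells. *Ly6c2* spanned 5.00-fold, from 563 CPM in control LN cells with fewer than 3 *Ccl5* UMIs to 2817 CPM in CD8-IFNγRKO LN cells with 3 or more. *Ly6e* spanned 1.45-fold, from 877 to 1270 CPM. *Ly6c1* stayed between 0.56 and 1.93 CPM. A UMI counts a molecule by its 5′ end, whatever its length, and these values are read between groups within a gene.

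**Figure D1:**
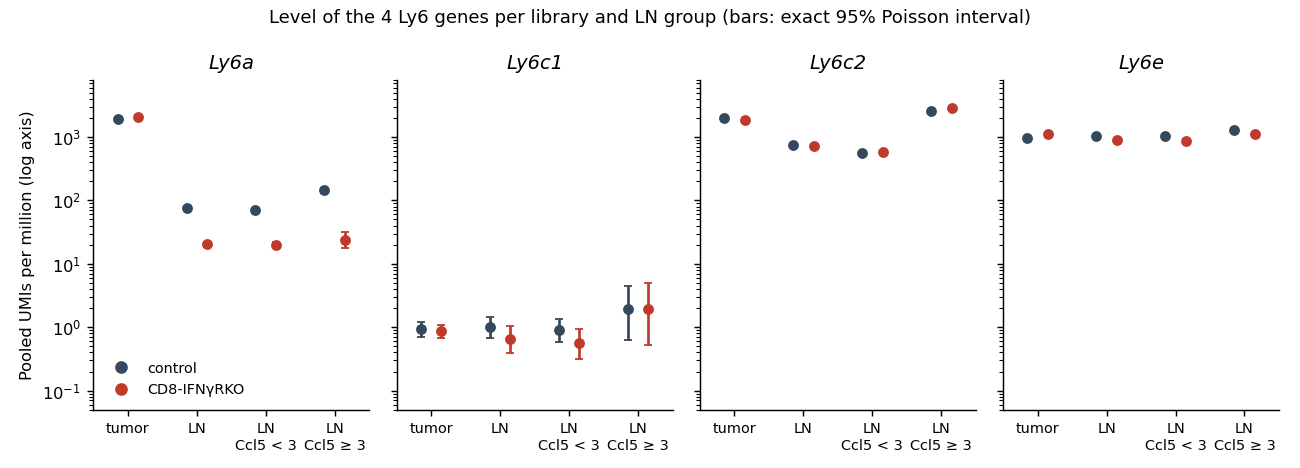
CPM of each gene on a log axis in the tumor, the whole LN and the LN cells with fewer than 3 or with 3 or more *Ccl5* UMIs, for control (dark) and CD8-IFNγRKO (red) libraries. Bars are exact 95% Poisson intervals. The genotypes stand apart for *Ly6a* in the LN, at 76.7 and 20.2 CPM, and lie close together for *Ly6c2* and *Ly6e* in every group.

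In the LN, *Ly6a* was furthest below the control in the CD8-IFNγRKO library among the genes ranked as described below. It had 583 UMIs there, or 20.2 CPM (interval 18.6 to 21.9), against 2296 UMIs, or 76.7 CPM (interval 73.6 to 79.9), in the control LN. With the pseudocount of 1 CPM added to each, the level was 3.66-fold lower, a log2 ratio of −1.87 (interval −2.0 to −1.75). Fold values beside log2 ratios below include this pseudocount too, while the spans given above do not. Genes were ranked where 1 of the libraries reached 50 CPM and the pair held 100 UMIs. Among the 2752 that did, *Ly6a* had the lowest ratio, and it made up the whole 0.0363% of genes more than 1 log2 unit below the control. Another 0.0363%, the predicted gene *Gm21887* (named after its values were seen), lay more than 1 log2 unit above the control. The median over all ranked genes was 0.03. The control and CD8-IFNγRKO LN libraries had similar depth, and *Ifngr2*, the gene of the other receptor chain, stood at 36.2 CPM in the CD8-IFNγRKO LN and 30.1 CPM in the control LN.

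**Figure D2:**
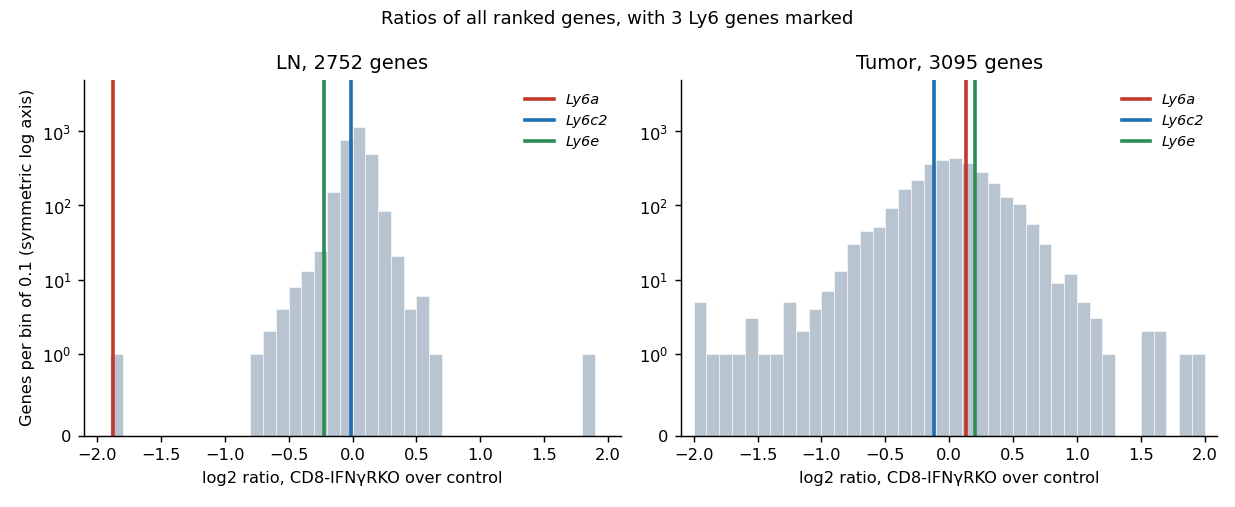
Number of ranked genes (symmetric log axis) in bins of 0.1 of the log2 ratio of the CD8-IFNγRKO over the control library, in the LN (left, 2752 genes) and the tumor (right, 3095 genes), with genes beyond the ends of the axis placed in the outermost bins. Vertical lines mark *Ly6a*, *Ly6c2* and *Ly6e*. *Ly6a* is alone at −1.87 in the LN and lies inside the main body of genes at 0.13 in the tumor.

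The lower *Ly6a* was present in both ranges of LN cells. In cells with fewer than 3 *Ccl5* UMIs (6387 CD8-IFNγRKO and 6245 control cells), *Ly6a* stood at 19.9 CPM (interval 18.3 to 21.7) against 70.4 CPM (interval 67.3 to 73.6) in the control. That is a log2 ratio of −1.77 (interval −1.90 to −1.64), the lowest of 2759 ranked genes, of which 0.0362% were more than 1 log2 unit lower. In cells with 3 or more (339 and 395 cells), it was 24.1 CPM (interval 17.9 to 31.7, 50 UMIs) against 143.5 CPM (interval 129 to 159, 372 UMIs). This 5.76-fold lower level, a log2 ratio of −2.53 (interval −2.96 to −2.11), was again the lowest, here of 2689 genes, of which 0.186% were more than 1 log2 unit lower. The others, also named after their values were seen, were *S100a4*, *S100a6*, *Igfbp4* and *Hist1h2ae*, at log2 ratios of −1.69 to −1.07. The intervals of the genotypes did not overlap in either range. The share of all ranked genes without such overlap was not computed. The intervals cover counting error only, and the genes were chosen on these same levels, so this describes the values and is not a test.

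In the tumor, *Ly6a* was slightly higher in the CD8-IFNγRKO library. It reached 2089 CPM (interval 2080 to 2099) there and 1905 CPM (interval 1894 to 1917) in the control tumor, a log2 ratio of 0.13 (interval 0.12 to 0.14). Counted from the highest, this ratio was the 1086th of 3095 ranked genes, of which 1.26% were more than 1 log2 unit from the control in either direction. The CD8-IFNγRKO tumor library was the deeper of the pair, and the part of depth in a difference of this size was not tested beyond the values under other settings given at the end.

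Between tissues, *Ly6a* was higher in the tumor in both genotypes. In control mice the tumor level was 24.5-fold that of the LN, a log2 ratio of 4.62 (interval 4.56 to 4.68), and 18.6% of 3331 ranked genes were more than 1 log2 unit higher. In CD8-IFNγRKO mice it was 98.4-fold, a log2 ratio of 6.62 (interval 6.51 to 6.74), with 20.4% of 3455 genes as far above. *Ly6a* was the 88th highest gene in the control comparison and the 21st in the CD8-IFNγRKO comparison. The tumor kept the higher level when only LN cells with 3 or more *Ccl5* UMIs were set against it. The log2 ratio was then 3.72 in control mice (interval 3.58 to 3.87), where 18.1% of genes were more than 1 log2 unit higher, and 6.38 in CD8-IFNγRKO mice (interval 6.0 to 6.79), where 22% were. Tumor and LN cells differ in depth and were prepared differently, and tissue and preparation cannot be told apart.

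The share of cells with at least 1 *Ly6a* UMI followed the level. With each cell thinned to 1600 UMIs, it was 2.57% in the CD8-IFNγRKO LN (interval 2.21 to 2.98) and 9.20% in the control LN (interval 8.50 to 9.93). The tumor shares were 89.6% in CD8-IFNγRKO and 89.1% in control mice. Without thinning the shares were 6.01%, 18.6%, 96.5% and 95.9% in the same order. Among LN cells with 3 or more *Ccl5* UMIs, 11 of 339 CD8-IFNγRKO cells (3.24%, interval 1.63 to 5.73) and 69 of 392 control cells (17.6%, interval 14.0 to 21.7) had one after thinning, and 9.73% and 31.6% before it. *Cd79a*, a B cell gene, was in 0 to 0.090% of thinned cells per library, and *Pmel*, a melanocyte gene, in 0.031 to 0.19%. Cells shallower than 1600 UMIs, left out of these thinned shares, numbered 278 in the CD8-IFNγRKO tumor, 701 in the control tumor, 41 in the CD8-IFNγRKO LN and 237 in the control LN.

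In the CD8-IFNγRKO LN, 2 cells held more *Ly6a* UMIs than any cell of the control LN. In the CD8-IFNγRKO LN 404 cells had at least 1, and 2 cells with 32 and 22 UMIs held 54 of the 583. In the control LN 1235 cells had at least 1, and the highest cell had 19 of the 2296. Without those 2 cells the CD8-IFNγRKO LN stood at 18.4 CPM (interval 16.8 to 20). *Gzmd*, *Gzme* and *Gzmf*, granzyme genes of the tumor cells, had 0 UMIs in either LN library. *Gzmc*, another of them, had 7 UMIs in the CD8-IFNγRKO LN and 3 in the control LN, or 0.041% and 0.048% of its tumor level. *Gzmb*, the main killer-cell granzyme, stood in the LN at 0.038% of its tumor level in CD8-IFNγRKO mice and 0.125% in control mice, while *Ly6a* stood at 0.968% and 4.03%.

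In finer steps of *Ccl5*, *Ly6a* went up in the control LN and, apart from 1 step, stayed below 30 CPM in the CD8-IFNγRKO LN. From 0 through 1, 2, 3, 4 to 9 and 10 or more *Ccl5* UMIs, the control LN gave 68.1, 103, 126, 127, 156 and 138 CPM. The CD8-IFNγRKO LN gave 18.6, 21.0, 102, 20.5, 20.7 and 28.0 CPM. The high value at 2 UMIs rested on 1 cell with 32 of the 41 *Ly6a* UMIs of its 70 cells, and without it the value was 22.9 CPM (interval 10.5 to 43.4). Between the ranges used above, the log2 ratio of cells with 3 or more over cells with fewer than 3 *Ccl5* UMIs was 1.02 in the control LN (interval 0.85 to 1.18), where 1.44% of 2778 genes were more than 1 log2 unit higher. It was 0.26 in the CD8-IFNγRKO LN (interval −0.17 to 0.67), where 1.27% of 2824 genes were. The contrast between genotypes depended on the limit. For cells with 1 or more over cells with 0 *Ccl5* UMIs the log2 ratio was 0.93 in the control and 0.78 in the CD8-IFNγRKO LN (interval 0.48 to 1.07), or 0.30 (interval −0.049 to 0.64) without the cell with 32 *Ly6a* UMIs.

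**Figure D3:**
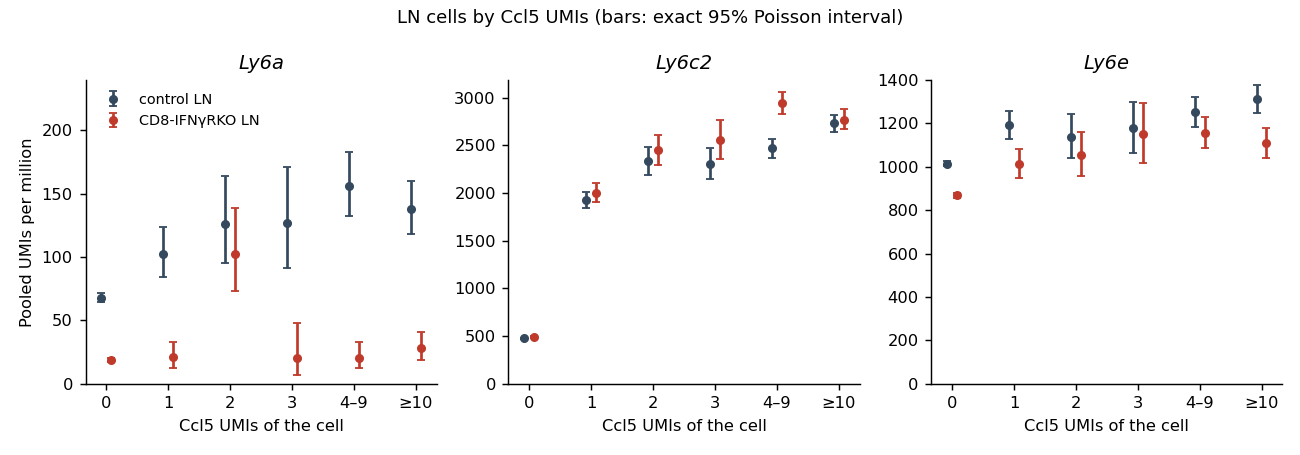
CPM of *Ly6a*, *Ly6c2* and *Ly6e* in LN cells by their number of *Ccl5* UMIs, for control (dark) and CD8-IFNγRKO (red) mice, with exact 95% Poisson intervals. *Ly6a* goes from 68.1 to 138 CPM in the control and from 18.6 to 28.0 CPM in CD8-IFNγRKO cells, whose point at 2 UMIs rests on 1 cell, while *Ly6c2* goes from 475 to 2730 CPM in the control and from 492 to 2770 CPM in CD8-IFNγRKO cells.

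*Ly6a* also varied with the antiviral genes within each library. Cells thinned to 1600 UMIs were split by their summed UMIs of *Isg15*, *Ifit1*, *Ifit3* and *Rsad2*, genes that type I interferon switches on. These ranges are cuts on a count and not cell types. In the control LN, *Ly6a* was 64.9 CPM in cells with 0 antiviral UMIs, 123 CPM with 1 to 2 and 224 CPM with 3 or more. In the CD8-IFNγRKO LN it was 14.9, 40.9 and 78.7 CPM. The log2 ratio of the highest over the lowest range was 1.77 in the control (interval 1.29 to 2.23) and 2.32 in the CD8-IFNγRKO LN (interval 1.49 to 3.06), so *Ly6a* was higher in cells with antiviral UMIs in both. Within each range the CD8-IFNγRKO level stayed below the control. The log2 ratios were −2.05 (interval −2.31 to −1.79), −1.57 (interval −2.05 to −1.11) and −1.50 (interval −2.42 to −0.65) from the lowest to the highest range. The ranges held similar numbers of cells in both genotypes, with 127 CD8-IFNγRKO and 117 control LN cells in the highest.

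In the tumor the same split gave *Ly6a* at 1828, 2216 and 3057 CPM in control cells and at 1959, 2256 and 2655 CPM in CD8-IFNγRKO cells. The step from the lowest to the highest range was 0.74 and 0.44 on the log2 scale. In the highest range the CD8-IFNγRKO level was therefore below the control, with a log2 ratio of −0.20, whereas it was above it in the lowest. The same step was not particular to *Ly6a*. For *Ly6c2* it was 0.72 in control and 0.87 in CD8-IFNγRKO tumor cells, and 0.87 and 0.42 in the LN.

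**Figure D4:**
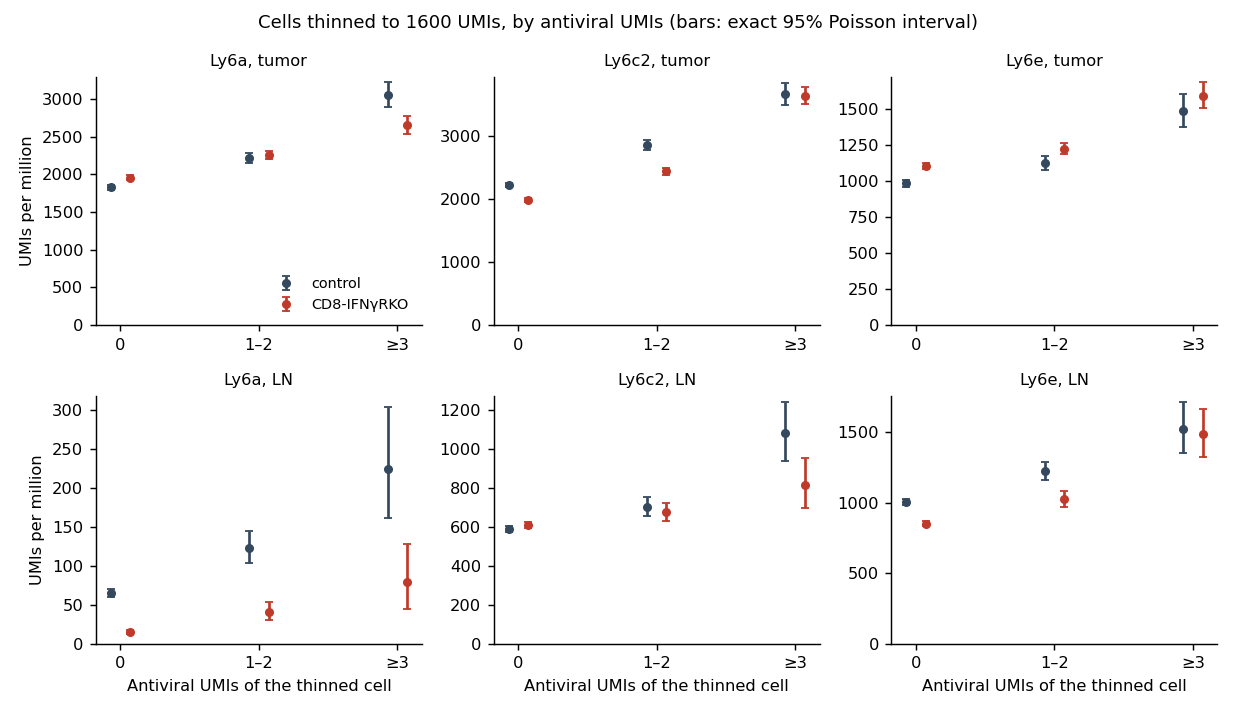
CPM of *Ly6a*, *Ly6c2* and *Ly6e* in cells thinned to 1600 UMIs, by their summed UMIs of *Isg15*, *Ifit1*, *Ifit3* and *Rsad2*, in the tumor (top) and the LN (bottom), with exact 95% Poisson intervals. *Ly6a* in the LN goes up from 64.9 to 224 CPM in control cells (dark) and from 14.9 to 78.7 CPM in CD8-IFNγRKO cells (red).

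The genes that accompanied *Ly6a* were chosen in the control libraries and then read in the CD8-IFNγRKO libraries. Among LN cells with fewer than 3 *Ccl5* UMIs, 520 control cells with a *Ly6a* UMI after thinning were set against 5491 without. *S100a6*, a calcium-binding protein gene of antigen-experienced cells, had a log2 ratio of 2.59 there and 3.96 in CD8-IFNγRKO cells. The next were interferon-inducible, with *Isg20* at 1.31 and 1.46, *Isg15* at 1.30 and 1.54, *Ifit1* at 1.23 and 1.56, and *Bst2*, which encodes tetherin, at 1.00 and 0.80. *Gbp8*, a guanylate-binding protein gene, stood at 0.85 in the control and −0.19 in CD8-IFNγRKO cells. Of the 10 genes furthest above in the control, 9 were above in CD8-IFNγRKO cells too. Of the 10 furthest below, 8 were below, but every CD8-IFNγRKO interval of these lower genes covered 0. *Id3*, the furthest below in the control, had an interval of −1.11 to 0.44 there, so their direction in CD8-IFNγRKO cells is undecided. Most genes have few UMIs in the 161 CD8-IFNγRKO cells with a *Ly6a* UMI, and these ratios are rough.

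In the tumor, 3406 control cells with 3 or more *Ly6a* UMIs after thinning were set against 695 with 0. *Tcf7*, the transcription factor gene of naive and stem-like cells, was lower by a log2 ratio of −2.70 in control and −2.64 in CD8-IFNγRKO cells with *Ly6a*. *Xcl1*, a chemokine gene, stood at −2.43 and −2.52, and *Ccr7*, the LN homing receptor gene, at −2.0 and −2.06. Among the genes on the higher side were *Ifit1* at 2.14 in control and 0.14 in CD8-IFNγRKO cells, *Ifitm3* at 1.21 and 0.87, and *Isg20* at 1.15 and 0.94. All 10 genes at each end had the same sign in both genotypes, but some CD8-IFNγRKO intervals covered 0. Among these were *Ifit1* (interval −0.23 to 0.52), *Areg* (−0.59 to 0.95) and, on the lower side, *Hspa1a* (−0.14 to 0.037). The share of all ranked genes with the same sign was not computed for any of these companion lists.

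*Ly6c2* showed no such gap between genotypes in the LN and followed *Ccl5* closely. It stood at 732 CPM in the CD8-IFNγRKO LN and 737 CPM in the control LN, a log2 ratio of −0.01 (interval −0.04 to 0.02). In LN cells with fewer than 3 *Ccl5* UMIs it was 570 and 563 CPM, and in those with 3 or more it was 2817 and 2574 CPM. The log2 ratios between genotypes were 0.02 (interval −0.02 to 0.05) and 0.13 (interval 0.08 to 0.18).

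The step across *Ccl5* was similar in both genotypes. Cells with 3 or more over fewer than 3 *Ccl5* UMIs had a log2 ratio of 2.19 for *Ly6c2* in the control LN (interval 2.15 to 2.23), the 14th highest of the 2778 genes, and 2.30 in the CD8-IFNγRKO LN (interval 2.26 to 2.35), the 13th highest of the 2824. By single *Ccl5* UMIs, *Ly6c2* was 475 CPM in control and 492 CPM in CD8-IFNγRKO cells with 0, and 1927 and 2004 CPM with 1. Most of the step thus lay between 0 and 1 UMI. Cells with *Ccl5* were deeper, with median depths of 5499 UMIs in CD8-IFNγRKO and 6169 in control cells with 3 or more, against 3803 and 3985 below that. Thinned to equal depth, 94.4% of CD8-IFNγRKO cells (interval 91.4 to 96.6) and 88.5% of control cells (interval 84.9 to 91.5) with 3 or more *Ccl5* UMIs had a *Ly6c2* UMI, against 26.4% and 27.2% of the others.

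The LN cells with high *Ly6c2* but little *Ccl5* shared a set of genes across genotypes. Among control cells with fewer than 3 *Ccl5* UMIs, 699 with at least 3 *Ly6c2* UMIs after thinning were set against 4378 with 0, and 13 of 2821 ranked genes were more than 1 log2 unit higher and 4 more than 1 lower. *Cxcr3*, a chemokine receptor gene of effector and memory cells, stood at 64.6 against 4.85 CPM, a log2 ratio of 3.49 in control and 3.46 in CD8-IFNγRKO cells. *Eomes*, a transcription factor gene of memory cells, followed at 2.35 and 2.13, *Ctla2a* at 1.95 and 1.68, and *Hopx* at 1.82 and 1.50. On the lower side, *Ccr9*, a gut homing receptor gene, stood at −2.29 and −2.24, and *Itgae*, which encodes the integrin CD103, at −1.59 and −2.04, followed by *Ramp1* at −1.17 and −1.53 and *Rgcc* at −1.01 and −1.13. All 10 genes at each end had the same sign in CD8-IFNγRKO cells, although the intervals of *Gnai3* (−0.59 to 0.094) and *Zfp53* (−0.80 to 0.032), at the lower end, covered 0. *Ly6a* was 110 CPM in the control cells high in *Ly6c2* and 60.8 CPM in those without, a log2 ratio of 0.85 there and 0.62 in CD8-IFNγRKO cells.

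In the tumor, *Ly6c2* was 1835 CPM in the CD8-IFNγRKO and 1992 CPM in the control library, a log2 ratio of −0.12 (interval −0.13 to −0.11). Against the whole LN the tumor was higher by a log2 ratio of 1.43 in control mice (interval 1.41 to 1.45) and 1.33 in CD8-IFNγRKO mice (interval 1.30 to 1.35). The order turned when the LN cells with 3 or more *Ccl5* UMIs were the reference. The ratio was then −0.37 in control mice (interval −0.41 to −0.33) and −0.62 in CD8-IFNγRKO mice (interval −0.66 to −0.58), so the level per UMI in these LN cells was above that of tumor cells. With cells thinned to equal depth, a setting added after seeing the data, these were −0.11 and −0.42. Over these 6 groups *Ly6a* was thus highest in the tumor and *Ly6c2* in LN cells with *Ccl5*, although some ranges of tumor cells described further on held more *Ly6c2* than either.

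Tumor cells with 3 or more *Ly6c2* UMIs after thinning, 3389 in the control, were set against 1234 with 0. On the higher side were *Ifit1* at a log2 ratio of 1.39 in control and 0.65 in CD8-IFNγRKO cells and *Isg20* at 1.08 and 0.65. On the lower side were *Penk*, the proenkephalin gene, at −2.28 and −0.51, *Ccl1*, a chemokine gene, at −1.76 and −0.80, *Xcl1* at −1.48 and −1.23, and *Cdk1*, a cell cycle kinase gene, at −1.13 and −0.46. Of the 10 genes at the higher end 9 had the same sign in CD8-IFNγRKO cells, and all 10 at the lower end did. Some of these CD8-IFNγRKO intervals covered 0, among them *Gzma* (−0.11 to 0.17), *Hist1h2ag* (−0.34 to 0.22) and *Ccr7* (−0.22 to 0.18).

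*Ly6e* differed little between groups, but its small difference between genotypes had opposite directions in the tissues. In the LN it was 895 CPM in the CD8-IFNγRKO and 1045 CPM in the control library, a log2 ratio of −0.22 (interval −0.25 to −0.20), the 45th lowest of the 2752 genes. In the tumor it was 1119 and 974 CPM, a log2 ratio of 0.20 (interval 0.19 to 0.21), the 844th highest of the 3095 genes. Whether tissues differ in this respect was not tested, since each ratio rests on 1 library per genotype.

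Within the LN, *Ly6e* was lower in CD8-IFNγRKO cells in both *Ccl5* ranges, at 877 against 1024 CPM below 3 UMIs and 1133 against 1270 CPM at 3 or more. The second log2 ratio was −0.16 (interval −0.24 to −0.09). Cells with 3 or more *Ccl5* UMIs were above the others by a log2 ratio of 0.31 in the control (interval 0.26 to 0.36) and 0.37 in CD8-IFNγRKO mice (interval 0.31 to 0.43). *Ly6e* was found in most cells, with 71.6% of CD8-IFNγRKO LN cells (interval 70.5 to 72.7) and 76.0% of control LN cells (interval 74.9 to 77.0) having a UMI after thinning, and 79.1% and 74.8% of tumor cells. Across the antiviral ranges it was higher in cells with 3 or more antiviral UMIs than in those with 0 in all 4 libraries, by log2 ratios of 0.81 and 0.61 in the CD8-IFNγRKO and control LN and 0.53 and 0.60 in the tumors. The tumor level over the LN level had a log2 ratio of −0.10 in control mice (interval −0.12 to −0.08) and 0.32 in CD8-IFNγRKO mice (interval 0.30 to 0.34). Without T cell receptor, heat shock, ribosomal protein and mitochondrial genes in the total, these became −0.39 and 0.059.

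*Ly6c1* was close to absent in the counts. It had 81 UMIs in the CD8-IFNγRKO tumor, 55 in the control tumor, 19 in the CD8-IFNγRKO LN and 30 in the control LN, or 0.86, 0.93, 0.66 and 1.00 CPM. After thinning, 0.14%, 0.20%, 0.075% and 0.16% of cells had one, which overlaps the share of cells with *Pmel*. The log2 ratios between genotypes were −0.05 in the tumor (interval −0.29 to 0.19) and −0.27 in the LN (interval −0.64 to 0.12). No difference in *Ly6c1* was detectable at this depth.

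The tumor cells were not uniform in these genes. Cells with at least 1 *Tcf7* UMI after thinning, 467 in the CD8-IFNγRKO tumor (5.60%) and 184 in the control tumor (2.88%), had less *Ly6a* and more *Ly6c2* and *Ly6e* than the rest. *Ly6a* was 1132 CPM in CD8-IFNγRKO and 1029 CPM in control cells with *Tcf7*, against 2121 and 1982 CPM in those without. *Ly6c2* was 3836 and 2806 CPM with *Tcf7* and 2083 and 2385 CPM without. *Ly6e* was 1577 and 1206 CPM with *Tcf7* and 1133 and 1025 CPM without. Among the cells with *Tcf7*, *Ly6c2* was higher in CD8-IFNγRKO mice by a log2 ratio of 0.45 (interval 0.34 to 0.56), while among those without it stood at −0.20. Thinned cells all weigh the same, which makes these levels differ from the sums over a library.

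Dividing tumor cells, with UMIs of *Mki67* or *Top2a*, had less *Ly6c2* than the others. They were at 1722 CPM in CD8-IFNγRKO and 1740 CPM in control mice against 2396 and 2554 CPM, log2 ratios of −0.48 and −0.55. *Ly6a* differed by only −0.03 and −0.09 in the same split. Cells with *Havcr2* or *Entpd1*, genes of exhausted cells, differed from those without by 0.20 and 0.15 for *Ly6a*.

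T cell receptor sequences gave both chains for 5930 CD8-IFNγRKO tumor cells (68.8%) and 4280 control tumor cells (60.4%), in 429 and 260 clones. *Ly6a* was lower in cells seen as a clone of 1 than in larger clones. It was 1137 CPM in CD8-IFNγRKO and 1056 CPM in control cells of clones of 1, and 2147 and 1984 CPM in clones of 10 or more, log2 ratios of 0.92 (interval 0.85 to 0.98) and 0.91 (interval 0.82 to 1.00). Clones of 2 to 9 were already at 2100 and 1991 CPM. *Ly6c2* went the other way, from 4188 to 1793 CPM in CD8-IFNγRKO and from 2780 to 2057 CPM in control mice, log2 ratios of −1.22 (interval −1.26 to −1.19) and −0.43 (interval −0.49 to −0.38). *Ly6e* was also lower in the large clones, with log2 ratios of −0.65 and −0.36. Cells of clones of 1 were shallower, with median depths of 3997.5 and 4039 UMIs against 10502 and 6324.5 in clones of 10 or more, and the part of depth was not tested.

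Single large clones spread widely around these values. Over the 25 CD8-IFNγRKO clones of at least 20 cells, the lowest, median and highest *Ly6a* levels were 1453, 2223 and 2758 CPM, and over the 22 control clones they were 1453, 2019.8 and 2629 CPM. For *Ly6c2* they were 703, 2063 and 4527 CPM and 1200, 2510 and 5726 CPM. The clones of the genotypes overlapped over most of their range for both genes. Cells of a clone share a mouse and a receptor and are not replicates of a genotype.

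**Figure D5:**
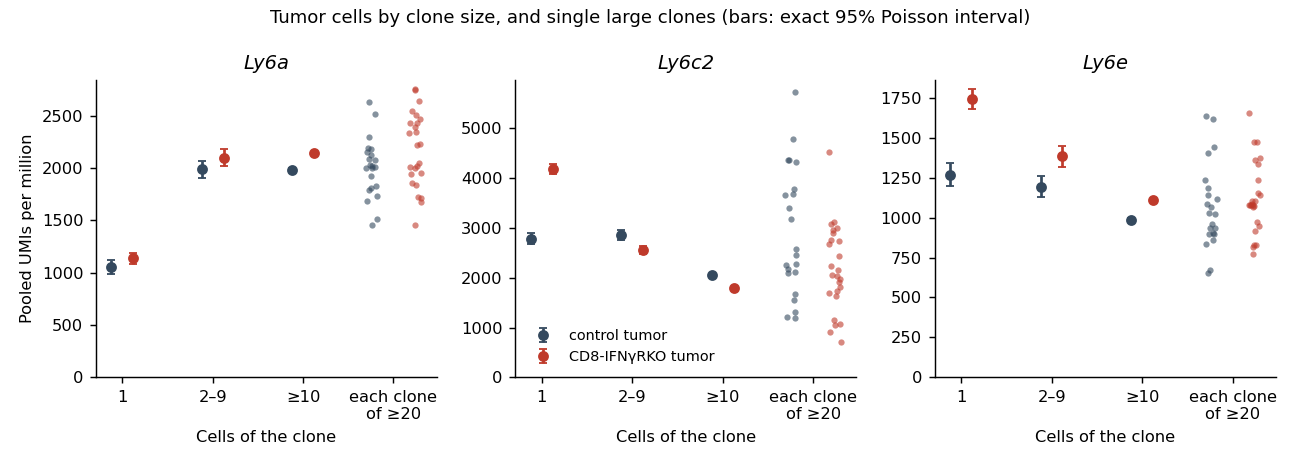
CPM of *Ly6a*, *Ly6c2* and *Ly6e* in tumor cells of clones of 1, 2 to 9 and 10 or more cells, with exact 95% Poisson intervals, and in each clone of at least 20 cells (small points without bars), for control (dark) and CD8-IFNγRKO (red) mice. In CD8-IFNγRKO cells *Ly6a* goes from 1137 CPM in clones of 1 to 2100 CPM in clones of 2 to 9 and 2147 CPM in larger ones, while *Ly6c2* goes down from 4188 through 2556 to 1793 CPM.

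The genes whose pattern over the 6 groups was most like that of each member were found by the root mean square difference of centred log2 levels among 6675 genes. For *Ly6a* they were *Ttc39c* (0.52), *Zbtb32* (0.53), *Irf8* (0.59), *Cx3cr1* (0.66) and *Mt3* (0.66). *Irf8*, a transcription factor gene, stood at 268 CPM in the CD8-IFNγRKO and 356 CPM in the control tumor, and at 0.97 against 3.59 CPM in LN cells with fewer than 3 *Ccl5* UMIs. In those LN cells *Ttc39c* was at 0.19 against 0.33 CPM and *Zbtb32* at 0.37 against 0.88 CPM. *Cx3cr1* was at 0.11 against 0.073 CPM, the other way, and *Mt3* at 0 CPM in both. Apart from *Irf8* in the control, these levels lie below the pseudocount of 1 CPM. At 3 or more *Ccl5* UMIs, *Irf8* was at 3.85 CPM in CD8-IFNγRKO and 11.2 CPM in control LN cells. *Ttc39c* was there at 0 and 5.02 CPM, *Zbtb32* at 0.48 and 5.02 CPM, and *Cx3cr1* and *Mt3* each at 0 and 1.54 CPM. These genes were picked for a pattern like that of *Ly6a* over these same groups, so their shared direction there is not a separate result. For *Ly6c2* they were *Hopx* (0.26), *Ppm1j* (0.27), *Myo1f* (0.42), *Cd44* (0.42) and *Il18r1* (0.43). *Hopx* was 65.2 and 69.0 CPM in CD8-IFNγRKO and control LN cells below 3 *Ccl5* UMIs and 229 and 267 CPM in those at 3 or more. For *Ly6e* they were *Coq2* (0.066), *Eif3g* (0.066) and *Pabpc4* (0.079), genes with nearly level expression. The *Ly6c1* counts were too low for this comparison.

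Gene lists of the pathway, chosen with earlier results of these data known, are given beside the *Ly6a* difference, whose cause was not tested. Of 40 genes of the response to IFNγ, 31 were ranked in the LN. Of these, 29 had a ratio below 0, 28 of them with the whole interval below 0, and the median log2 ratio was −0.18. Over all ranked LN genes the median was 0.03, with quartiles at −0.03 and 0.09, so most of them lay above 0. The share of all ranked genes with the whole interval below 0 was not computed. The lowest were *Gbp2* at −0.77 and *Gbp6* at −0.66, guanylate-binding protein genes, so the *Ly6a* ratio of −1.87 lay beyond both. In the tumor 28 of the 40 were ranked. Of these, 18 were below 0, all with the whole interval below 0, and 10 were above 0, 9 of them with the whole interval above 0. The median there was −0.18, and *Irf1*, an early IFNγ-induced transcription factor gene, was lowest at −0.74. *Psmb9* was highest at 0.17. Over all ranked tumor genes the median was 0.03, with quartiles at −0.16 and 0.22. No ranked gene of this list was more than 1 log2 unit from the control in either tissue. Genes of the list below the ranking limit are not covered by this. Among them was *Irf8* in the LN, at 1.18 CPM in CD8-IFNγRKO and 4.24 CPM in control mice. Of 43 antiviral genes, 14 were ranked in the LN, 7 below and 7 above 0, with a median of 0.03. In the tumor 13 of 16 were above 0, with a median of 0.19 and *Bst2* highest at 0.70.

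Of 28 genes of effector and memory cells, 12 were ranked between genotypes in the LN, 4 below and 8 above 0. Their median was 0.02, beside 0.03 over all ranked LN genes. Among LN cells with 3 or more *Ccl5* UMIs, where 20 were ranked, 14 were below 0, with a median of −0.06 and *S100a4* lowest at −1.45, *S100a6* at −1.07 and *Itgb1* at −0.63. Over all ranked genes in these cells the median was −0.015, with quartiles at −0.125 and 0.089. The count below 0 is therefore not read as a shift of the list. In the tumor 18 of 21 were below 0, with a median of −0.31 and *Ccl5* itself lowest at −1.57. The median of all ranked tumor genes was 0.03. Split by *Ccl5* UMIs, tumor cells with 0 had *Ly6a* at 1529 CPM in control and 1911 CPM in CD8-IFNγRKO mice. Those with 10 or more had 1934 and 2162 CPM. *Ly6c2* was 1911 and 1854 CPM with 0 and 2029 and 1912 CPM with 10 or more, with lower values in between. Because *Ccl5* itself differed between the tumor libraries, these tumor ranges are not used further. Across the LN ranges of *Ccl5*, 11 of 20 ranked genes of the list were more than 1 log2 unit higher in the control and 10 of 19 in CD8-IFNγRKO cells, beside the 1.44% and 1.27% of all ranked genes given above, with medians of 1.76 and 1.60. Of 15 genes of naive cells, all were ranked in the LN, 5 below and 10 above 0, with a median of 0.11. The median of all ranked LN genes was itself above 0, at 0.03, so the counts above 0 are not read as a shift of either list. In the tumor over the LN, where *Ly6a* was higher, 14 of the 15 were more than 1 log2 unit lower in each genotype, beside 9.16% of all ranked genes in control and 11.2% in CD8-IFNγRKO mice, with medians of −3.63 in control and −3.38 in CD8-IFNγRKO mice. Of 14 genes of other GPI-anchored proteins and of GPI attachment, 4 were ranked in the LN, among them *Thy1* at 0.11, *Cd48* at 0.16 and *Cd52* at −0.08.

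Of 36 further genes of the Ly6 family, 34 were in the matrices and 28 stayed below 1 CPM in all 4 libraries. Only 4 reached 5 CPM in any. *Plaur*, the urokinase receptor gene, stood at 24.5 CPM in the CD8-IFNγRKO LN and 15.9 CPM in the control LN, against 1.06 and 0.79 CPM in the tumors. *Ly6k* stood at 9.86 and 16.6 CPM in the LN and 0.38 and 2.92 CPM in the tumors. *Ly6g5b* was highest in the control tumor at 9.43 CPM, against 2.29 CPM in the CD8-IFNγRKO tumor, and *Lypd6b* was at 6.94 and 5.48 CPM in the LN.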

How the data were processed

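Sorted CD8 T cells were profiled with the 10x Genomics 5′ kit in 4 gene expression and 2 T cell receptor libraries. The authors deposited UMI counts per gene and barcode from Cell Ranger 6.0.0 on mm10, as the matrix headers and the submitters' processing notes give it, and receptor contig tables with read and UMI counts. From these counts, a barcode was kept if *Cd2*, *Cd8a* and *Cd8b1* each had 1 UMI or more, it held between 200 and 6000 genes, and neither mitochondrial genes (over 3% of UMIs) nor a single gene (over 20%) took too large a part. Barcodes with 10 or more UMIs over the myeloid genes (1 to 21 per library) were removed. No doublet caller was run.

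UMIs were summed per group, divided by all UMIs of its cells and given per 1000000 UMIs (CPM). Log2 ratios used a pseudocount of 1 CPM, with exact 95% intervals conditional on the totals. Genes with at least 50 CPM in either group and 100 UMIs over both were ranked, and those more than 1 log2 unit apart were counted. Shares and ranges within libraries used cells thinned to 1600 UMIs (seeded). Summed UMIs per library were 28813736 to 93824171. The calculation was tested on simulated data. Named genes were the members, the 3 most extreme ranked genes of each list, the 10 companions at each end, chosen in control cells, and the 5 genes most alike in pattern, of which a selection is printed. The members and lists were chosen with earlier results of these data known. The marker lists of NK cells (0.50 to 2.40 CPM in sum), melanoma cells (2.54 to 3.90), CD4 and regulatory T cells (16.4 to 64.0), erythroid cells (0 to 2.34) and myeloid cells (0.73 to 10.0) were low in every library. The myeloid list is also the one by which barcodes were removed. The scripts ran in Python 3.11.15 with pandas 2.3.3, numpy 2.4.6, scipy 1.17.1 and matplotlib 3.10.9.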

Additional observations from a re-analysis of the deposited data

Results flagged for a closer look

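*Ly6a* and *Ly6e* had ratios of opposite sign in the tissues under the same contrast of genotypes. For *Ly6a* the log2 ratio of CD8-IFNγRKO over control was 0.13 in the tumor and −1.87 in the LN, and for *Ly6e* it was 0.20 in the tumor and −0.22 in the LN. Each interval, which covers counting error only, lay on its own side of 0. Both tumor ratios lay between the quartiles of all ranked tumor genes, −0.16 and 0.22. The quartiles of all ranked LN genes, −0.03 and 0.09, also lie on both sides of 0. The share of all ranked genes with opposite signs in the tissues was not computed, so the opposite signs are not read as particular to these genes. The difference between tissues was not tested, because 1 library per tissue and genotype leaves no spread between samples to test it against.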

How the results depend on the processing

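No paired analysis was possible because each tissue and genotype had 1 library. Of 368 ratios under other settings, 283 stayed within the interval of the reported value, 85 moved out of it and 0 changed the sign of a ratio whose interval lay clear of 0. The *Ly6a* ratio between genotypes in the LN ranged from −2.01 to −1.52. Most of those that moved compared tumor with LN or the *Ccl5* ranges. Over all settings, the tumor over LN ratio ran from 1.15 to 1.97 (control) and 1.06 to 1.85 (CD8-IFNγRKO) for *Ly6c2* and from −0.39 to −0.012 and 0.059 to 0.41 for *Ly6e*, and the *Ccl5* step of *Ly6c2* ran from 2.07 to 2.42 and 2.07 to 2.58. The moved genotype ratios of whole tissues follow, on the log2 scale. With cells thinned to 1600 UMIs, the tumor gave 0.079 for *Ly6a*, −0.14 for *Ly6c2* and 0.17 for *Ly6e*, and the LN gave 0.022 for *Ly6c2*. As a mean per cell, *Ly6a* in the tumor was 0.094. Centred on the median gene, the tumor gave 0.11 for *Ly6a*, −0.15 for *Ly6c2* and 0.17 for *Ly6e*, and the LN gave −0.043 for *Ly6c2* and −0.26 for *Ly6e*. Without the deepest 8% of cells, the tumor gave 0.12 for *Ly6a* and −0.16 for *Ly6c2*, and the LN gave −2.01 for *Ly6a* and 0.027 for *Ly6c2*. Without the barcode filter *Ly6c2* in the tumor was −0.082, and with a pseudocount of 10 CPM *Ly6a* in the LN was −1.52. Centring shifted tumor over LN ratios by 0.20 in control and 0.23 in CD8-IFNγRKO mice. Leaving out the single cell with the most *Ly6a*, a choice made after seeing the data, brought CD8-IFNγRKO LN cells with 2 *Ccl5* UMIs from 102 to 22.9 CPM. *Ly6c1*, with 19 to 81 UMIs per library, is limited by its counts.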

Other observations

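A few LN barcodes carried B cell genes in place of *Cd8a*, and *Ly6a* was read in them too, although fewer than 50 were found per library. Barcodes with at least 3 UMIs of *Cd79a*, *Cd79b* and *Ms4a1* together and none of *Cd8a* numbered 23 in the CD8-IFNγRKO LN and 20 in the control LN, before the filter for CD8 T cells. *Ly6a* was 281 CPM there (interval 164 to 450, 17 UMIs) against 664 CPM (interval 457 to 933, 33 UMIs), and *Ly6e* was 3634 against 3039 CPM. The barcodes are few and come from 1 library each.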
